A study of Mus musculus with 24 samples.

Results

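The 10 genes described here encode the lipases that release fatty acids from stored fat, their regulators, and the proteins that coat the lipid droplet. They were taken by symbol from the deposited expression table of mouse inguinal white adipose tissue, the subcutaneous fat pad of the groin, and all 10 were found among 16118 genes. Fat is broken down in steps. Adipose triglyceride lipase (Pnpla2) takes the first fatty acid from a triglyceride, hormone-sensitive lipase (Lipe) the next, and monoglyceride lipase (Mgll) the last. Abhd5, also called CGI-58, activates Pnpla2, and G0s2 inhibits it. Perilipins sit on the droplet surface: Plin1 is the main coat protein of fat cells and holds Abhd5 until a hormone signal arrives, Plin2 coats droplets in most cell types, Plin4 coats droplets in fat cells and in muscle, and Plin5 is typical of tissues that burn fat. Cidec (FSP27) fuses small droplets into large ones.

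Poly(A) RNA was sequenced from 24 mice, 1 library per mouse, in 6 groups of 4. Males and females were taken at postnatal day 21 (p21), or at day 28 (p28) after standard weaning (SW, parted from the dam on day 21) or a later one, called delayed weaning (DW, left with the dam). The animals carried no gene alteration or drug named in the labels, and the strain is not given in the sources used here. Whole tissue was sampled, so fewer cells of a type and less RNA per cell cannot be told apart in any value below. The p21 libraries have p28 in their titles, and their age labels and descriptions were followed.

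Recovered reads ranged from 57600711 to 302145813 per library, and each of the 10 genes had at least 588 reads in every library. A value below is the deposited normalised value, a read number divided by a factor of its library. Adipocyte markers were present in all groups: the summed value of 7 adipocyte markers ran from 3109 to 7141, with none of the 7 at 0 in a whole group. Other tissue varied between animals. The summed value of 9 skeletal muscle genes ran from 5.29 in a DW female to 7181 in a DW male. Mammary epithelial genes were higher in females at p28 in 7 of 7 cases under both weaning regimes. Among the DW females, the libraries of animals 82 and 83 stood apart from those of animals 76 and 77 as a whole: the chi-square per degree of freedom of their recovered reads was 594 to 790 between the pairs, against 77.1 to 364 in the 32 other pairs of animals within a group. Calls that use this group are therefore given with and without them. Animals 82 and 83 belong to a later run of animal numbers (81 to 87) than animals 76 and 77 (73 to 80). Whether that run marks a litter or a handling date is not stated in the labels.

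Levels were compared between genes per kb of exon. Averaged over the 24 animals, Pnpla2 was the most abundant of the 10 at 493 per kb, followed by Cidec at 348. Plin1 (257), G0s2 (243) and Plin4 (226) lay close together, and their ranges over animals overlapped widely. Lipe stood at 147, Mgll at 118 and Plin2 at 73.3. The activator Abhd5 was lower, at 26.6, and Plin5 was the lowest at 5.15, with only 62.3% of all genes below it against 99.7% for Pnpla2. Plin1 was the steadiest, with a highest animal 1.60 times the lowest, whereas G0s2 spanned 11.1 times and Pnpla2 4.67 times.

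**Figure D1:**
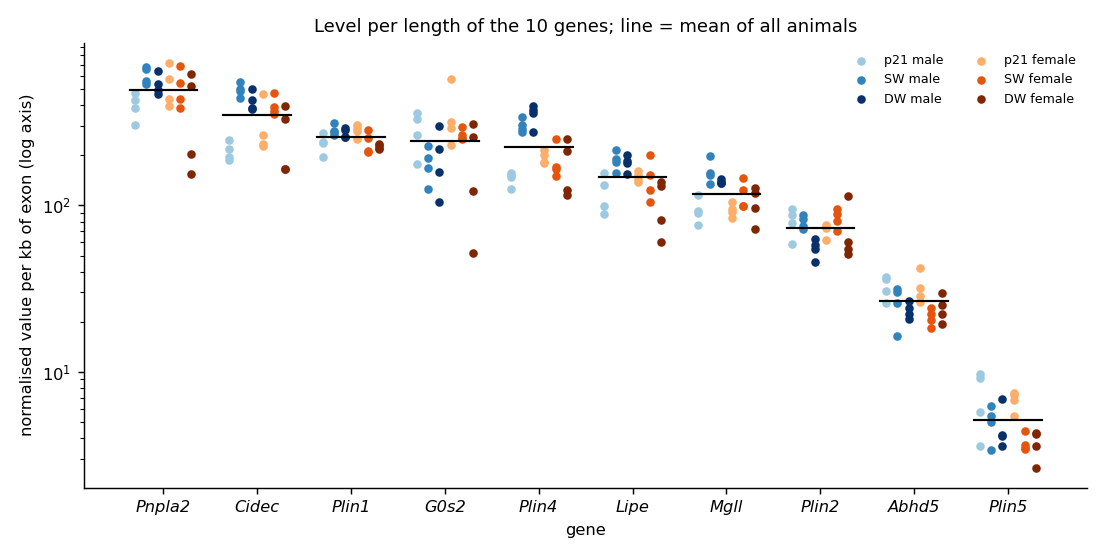
Normalised value per kb of exon (log axis) for the 10 genes, ordered by their mean over 24 animals; each point is 1 animal, coloured by group, and the black line is the mean. Pnpla2 leads at 493 and Plin5 is lowest at 5.15, and the 2 lowest Pnpla2 points are DW females 82 and 83.

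**Figure D2:**
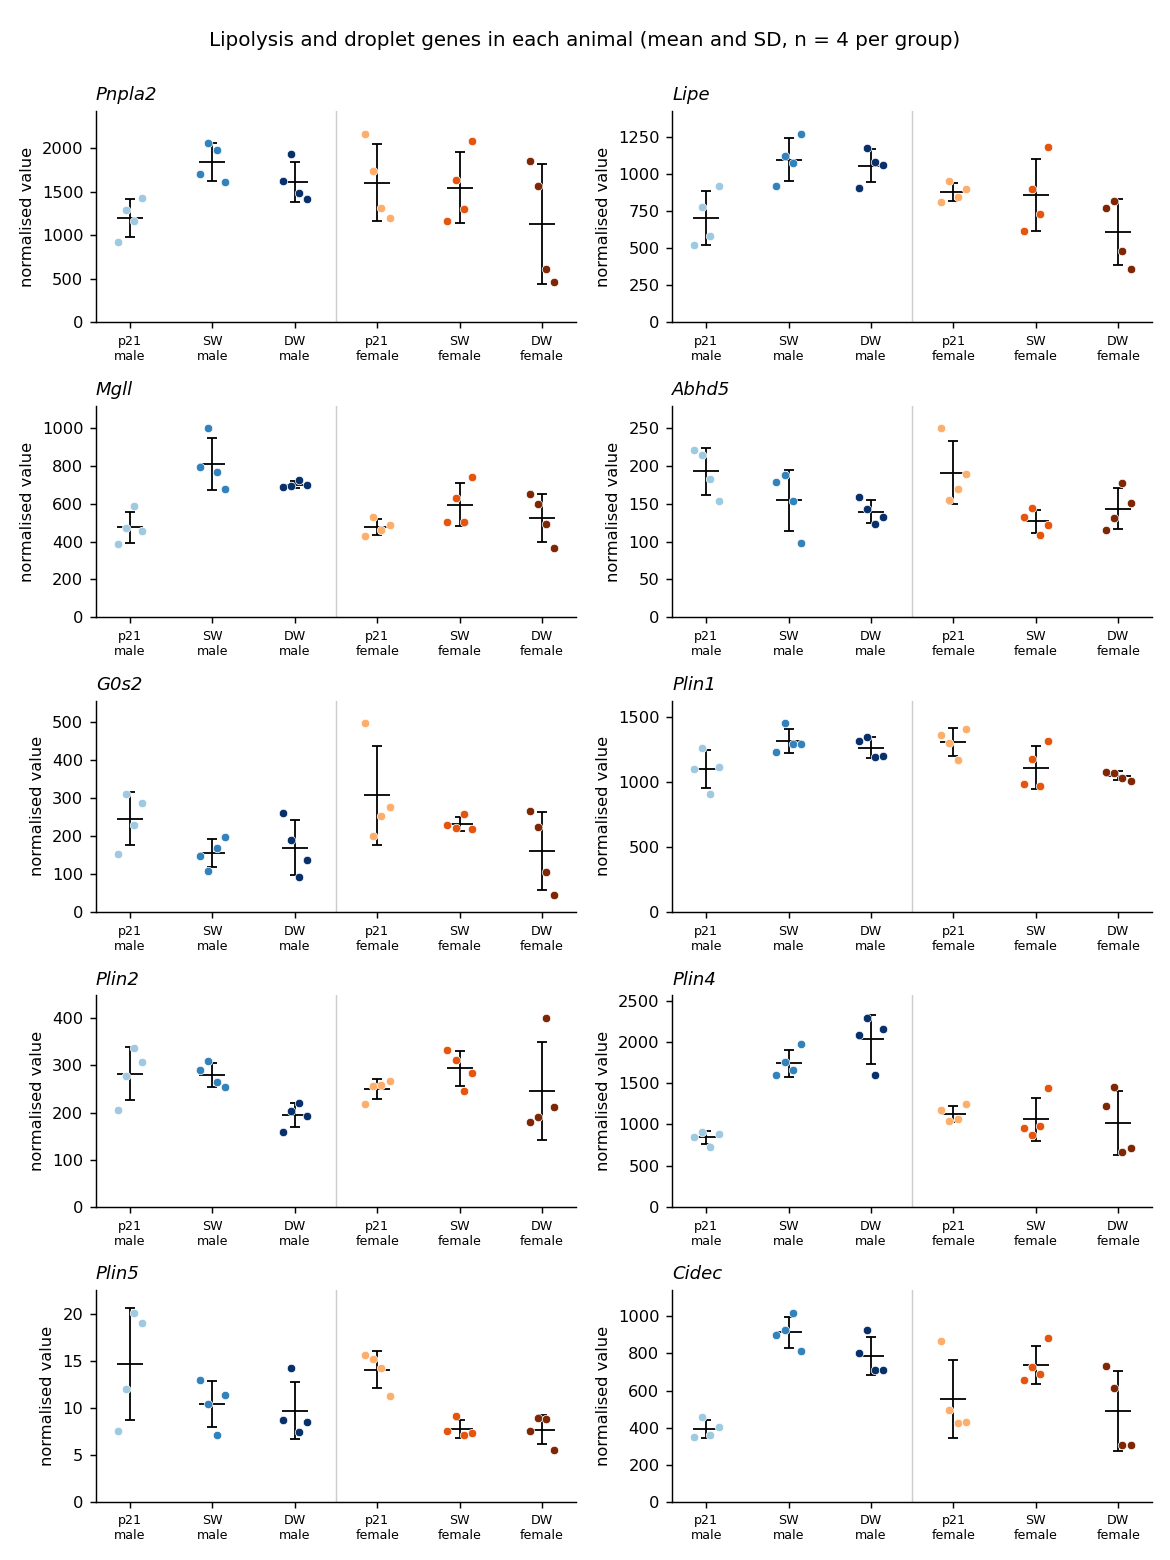
Normalised value of each gene in every animal by group (p21, SW and DW; males left of the grey line, females right); points are animals, and the black bar and whiskers are the group mean and SD (n = 4). Plin4, Cidec and Mgll sit higher at p28 than at p21 in males without overlap, and Plin5 sits lower at p28 in females without overlap.

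The sequences just upstream of 5 genes are shown, since these are the members whose age difference passed the test in the comparisons that follow: Plin4, Cidec and Mgll in males, and Plin5 and Abhd5 in females. Each is the 250 bases before a RefSeq gene start, read 5′ to 3′ on the gene's strand in GRCm38.p6. Plin4 is at chr17:56109783-56110032 (minus strand), Cidec at chr6:113435761-113436010 (minus), Mgll at chr6:88724162-88724411 (plus), Plin5 at chr17:56117549-56117798 (minus) and Abhd5 at chr9:122351366-122351615 (plus). Cidec, Mgll and Plin5 have a second RefSeq start, whose window is not shown. The bases that follow the Cidec and Plin5 starts used here were in no GENCODE M21 transcript of those genes. Those after the second Plin5 start were. Capitals mark a match, on either strand, to 1 of 6 short words. The first is the nuclear receptor core element, written AGGTCA. The next is the core element of the glucocorticoid receptor, written AGAACA. Then come the CAAT box motif, searched as CCAAT, and the basal promoter element often placed just upstream of a start (the TATA box), searched as TATAAA. The last are the cyclic AMP response element, searched as TGACGTCA, and the E-box of basic helix-loop-helix factors, searched as CACGTG. None of the words contains another.
Plin4: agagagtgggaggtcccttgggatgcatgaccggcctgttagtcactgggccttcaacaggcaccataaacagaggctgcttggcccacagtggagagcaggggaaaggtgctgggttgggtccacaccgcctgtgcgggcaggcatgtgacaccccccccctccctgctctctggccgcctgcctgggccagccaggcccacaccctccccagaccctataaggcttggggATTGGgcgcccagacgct
Cidec: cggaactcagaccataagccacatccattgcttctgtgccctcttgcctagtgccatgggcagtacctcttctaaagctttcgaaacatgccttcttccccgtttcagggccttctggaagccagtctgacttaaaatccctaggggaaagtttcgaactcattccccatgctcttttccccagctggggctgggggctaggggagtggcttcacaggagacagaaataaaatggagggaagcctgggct
Mgll: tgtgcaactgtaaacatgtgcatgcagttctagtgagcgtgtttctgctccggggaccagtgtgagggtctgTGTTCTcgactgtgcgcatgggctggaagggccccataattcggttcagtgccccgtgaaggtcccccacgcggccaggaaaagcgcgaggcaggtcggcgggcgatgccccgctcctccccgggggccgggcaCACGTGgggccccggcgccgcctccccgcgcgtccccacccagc
Plin5: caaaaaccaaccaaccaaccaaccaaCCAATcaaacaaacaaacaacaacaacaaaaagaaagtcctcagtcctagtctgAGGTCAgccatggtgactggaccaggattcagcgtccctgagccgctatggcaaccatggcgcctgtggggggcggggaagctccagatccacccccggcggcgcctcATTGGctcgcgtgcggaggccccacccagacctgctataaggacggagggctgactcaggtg
Abhd5: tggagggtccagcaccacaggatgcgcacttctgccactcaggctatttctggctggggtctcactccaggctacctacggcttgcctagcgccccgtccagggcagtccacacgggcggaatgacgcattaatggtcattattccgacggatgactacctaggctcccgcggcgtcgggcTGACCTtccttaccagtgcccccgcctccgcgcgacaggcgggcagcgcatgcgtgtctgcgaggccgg

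The Plin4 window held the CAAT box once, as its reverse complement, and the Plin5 window held it on both strands with a nuclear receptor element between. Of 32851 windows of the same length, 33.8% hold the CAAT box and 14.0% hold the nuclear receptor element. Abhd5 held the nuclear receptor element on the other strand. Mgll held the glucocorticoid receptor element on the other strand (in 16.1% of windows) and the E-box (6.02%), and Cidec held none of the 6 words. In these windows the 3 genes called in males shared no searched word. The Plin5 and Abhd5 windows both held the nuclear receptor element, but the second Plin5 window held none of the 6 words. The basal promoter box (12.4%) and the cyclic AMP response element (1.55%) were in none of the 5. A match is a string of letters and not a measured binding site.

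The first question was whether a week more with the mother altered these genes at day 28. A gene was called, or passed the test, when the limma test, adjusted over all tested genes by the Benjamini-Hochberg method, gave a p under 0.05. No member passed the test in males, where 0.256% of 16005 tested genes did, and none passed in females, where 1.27% did. At an unadjusted p under 0.05 there were 1 member in males (Plin2), where 6.94% of genes were, and 2 in females (Lipe and Cidec), where 18.9% were. edgeR and DESeq2 on recovered reads also called 0 members in both sexes. Of 16005 genes, edgeR called 29 in males and 71 in females, and DESeq2 called 114 and 290. The median of the 10 log2 differences (DW minus SW) was -0.11 in males and -0.26 in females, beside medians over all genes of 0.00 and -0.02. The intervals leave room for moderate differences: in males the Pnpla2 difference was -0.19 with a 95% interval from -0.86 to 0.48, and the Plin1 difference was -0.06 with an interval from -0.31 to 0.20.

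Plin2 came nearest in males. Its values were 290.3, 309.2, 263.9 and 254.4 in SW males and 159.8, 204.4, 219.5 and 192.2 in DW males. Every DW male lay below every SW male. The log2 difference was -0.53 ± 0.19 (SE, n = 4 per group), with an adjusted p of 0.461 and a 95% interval from -0.92 to -0.14. Within the runs of animal numbers the difference was -0.68 in 73 to 80 (2 DW males against 1 SW male) and -0.47 in 81 to 87. In females the Plin2 difference was -0.33 ± 0.19 (adjusted p 0.336), and it was -0.65 (adjusted p 0.251) without animals 82 and 83.

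In females the largest differences between weaning regimes rested on animals 82 and 83. Pnpla2 stood at 1860 and 1568 in DW females 76 and 77 and at 615.6 and 464.9 in animals 82 and 83, against 1164 to 2084 in the 4 SW females. Cidec stood at 733.2 and 611.5 in the first pair and at 306.0 and 306.4 in the second, against 654.6 to 885.1 in SW females. Animals 76 and 77 thus lay inside or close to the SW range, and animals 82 and 83 lay far below it. The log2 difference was -0.66 ± 0.32 for Pnpla2 (adjusted p 0.269), -0.82 ± 0.41 for G0s2 (0.277) and -0.70 ± 0.24 for Cidec (0.163). Without animals 82 and 83 these were 0.18, 0.08 and -0.13. Without animal 76 alone, Pnpla2 (-0.98, adjusted p 0.0405) and Cidec (-0.93, adjusted p 0.0186) passed the test. The score of the 7 adipocyte markers, their mean log2(value + 1), stood at 8.93 and 8.66 in animals 82 and 83 and at 8.84 and 8.77 in animals 76 and 77, so that the pairs overlapped. Endothelial scores were 7.66 and 7.55 against 7.98 and 8.10, and mammary scores were 3.20 and 3.29 against 4.31 and 4.26. Macrophage scores were 6.08 and 6.12 against 6.41 and 6.54. Scores of progenitors (5.43 and 5.36 against 5.63 and 5.81) and of brown or beige fat cells (5.76 and 5.22 against 5.82 and 5.92) were also lower in animals 82 and 83. Lymph node scores (5.57 and 5.68 against 5.65 and 5.30) and muscle scores (0.62 and 7.07 against 4.03 and 2.63) overlapped between the pairs. So did the summed values of macrophage genes (606 and 680 against 666 and 664) and of progenitor genes (364 and 399 against 394 and 446). The part of these cell types and tissues in the result was not tested.

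Within the animals numbered 73 to 80, the weaning difference of Pnpla2 in females was 0.33, over 2 DW and 3 SW animals. In the animals numbered 81 to 87 it was -1.96, over 2 DW animals and the single SW female 81, which held the highest Pnpla2 value of its group. Lipe (0.10 and -1.50), G0s2 (0.05 and -1.65) and Plin4 (0.52 and -1.06) showed the same split by run. The direction therefore did not hold within both runs for these 4 genes. Nor did it for Mgll (0.20 and -0.80), Plin1 (0.05 and -0.37), Plin5 (0.05 and -0.05), Abhd5 (-0.06 and 0.43) or Plin2 (-0.66 and 0.03). Cidec was negative in both runs (-0.04 and -1.53). In males the Pnpla2 differences, at 0.06 and -0.48, lay closer together than in females but also had opposite signs. So did those of Lipe (0.17 and -0.04), G0s2 (0.60 and -0.27) and Plin1 (0.11 and -0.19). The sign was the same in both runs for Mgll, Abhd5, Plin2, Plin4, Plin5 and Cidec. SW male 124 lies in neither run. No member passed the test of whether the weaning difference itself differed between the sexes, in which 0.0187% of genes passed. That count was also 0 at an unadjusted p under 0.05, where 5.09% of genes were. It was 0 with edgeR and DESeq2 too, which called 0 and 1 of 16005 genes.

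The next question was what changed between day 21 and day 28. The p21 animals are numbered 30 to 56 and the p28 animals 73 to 124, so no run of numbers holds both ages. In every age comparison below, age and run cannot be told apart. In males, 3 of 10 members rose and none fell under each weaning regime: Plin4, Cidec and Mgll. The background was 11.9% of genes called for SW males against p21 males and 15.0% for DW males against the same p21 males. The median of the 10 log2 differences was 0.45 and 0.32, beside 0.01 and 0.02 over all genes. Both comparisons use the same 4 p21 males, so they are not independent of each other.

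Plin4 showed the change most plainly. It stood at 850.7, 909.2, 726.3 and 879.9 in p21 males, at 1594, 1751, 1654 and 1970 in SW males, and at 2079, 2288, 1603 and 2151 in DW males. Every p28 male lay above every p21 male. The log2 difference was 1.05 ± 0.21 (2.07-fold, adjusted p 0.00244) for SW and 1.26 ± 0.21 (2.40-fold, adjusted p 0.000615) for DW. It passed in each of the 17 other settings tried for each regime, with a log2 difference between 0.98 and 1.09 for SW and between 1.19 and 1.37 for DW.

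Cidec, the fusion protein, stood at 349.7, 457.6, 362.2 and 405.0 in p21 males, at 899.2, 924.4, 1018 and 815.7 in SW males, and at 803.4, 926.1, 710.5 and 709.1 in DW males. Every p28 male lay above every p21 male, and the SW and DW males overlapped. The log2 difference was 1.22 ± 0.24 (2.33-fold, adjusted p 0.00252) for SW and 1.00 ± 0.24 (2.00-fold, adjusted p 0.0087) for DW. Mgll, which cleaves the last fatty acid, stood at 389.8, 472.5, 587.5 and 456.9 in p21 males. It stood at 795.9, 999.2, 768.6 and 678.9 in SW males and at 690.4, 692.1, 728.8 and 698.1 in DW males. Here too all p28 males exceeded all p21 males, by 0.77 ± 0.17 for SW (1.70-fold, adjusted p 0.005) and 0.57 ± 0.17 for DW (1.49-fold, adjusted p 0.0248).

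Other tissue in the samples moved with age. Skeletal muscle genes were called higher in 7 of 9 cases in SW males and in 7 of 9 in DW males against p21 males. Their summed value ran from 8.09 to 567 in p21 males, from 452 to 6955 in SW males and from 335 to 7181 in DW males, and no listed muscle gene was at 0 in a whole group. Plin4 is also made in muscle. Over the 24 animals, the muscle score had a Pearson r of 0.46 with Plin4, 0.64 with Cidec and 0.50 with Mgll. Macrophage genes were called higher in 4 of 5 cases in SW males and in 5 of 5 in DW males, and their summed value ran from 270.0 to 356 in p21 males, from 454 to 718 in SW males and from 571 to 634 in DW males. The macrophage score had a Pearson r of 0.48 with Plin4, 0.49 with Cidec and 0.51 with Mgll. Among the 7 adipocyte markers, Adipoq was called higher in SW and DW males (0.82 and 0.83), and Cfd was called higher (1.34) and Lep lower (-1.18) in SW males. The summed adipocyte value ran from 3109 to 4053 in p21 males, from 5487 to 7065 in SW males and from 4172 to 5320 in DW males. The adipocyte score had a Pearson r of 0.13 with Plin4, 0.40 with Cidec and 0.09 with Mgll. The part of macrophages and of the adipocyte markers in the male differences was not tested. With muscle, mammary and lymph node scores as covariates, Plin4 still passed in males (1.08, adjusted p 0.0312 for SW and 1.26, adjusted p 0.0209 for DW). In that fit Cidec (1.01, adjusted p 0.0741 and 0.75, adjusted p 0.197) and Mgll (0.78, adjusted p 0.0585 and 0.57, adjusted p 0.173) did not. Among p21 males the muscle score ran from 0.79 in animal 54 to 4.98 in animal 38. Plin4 ran from 726.3 in animal 53 to 909.2 in animal 38, and stood at 879.9 in animal 54. Animal 38 also held the highest Cidec value of the group (457.6), and animal 53 the highest Mgll value (587.5). The part of muscle in these values was not tested within the group.

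The first 2 lipases of the cascade had positive differences in males that did not pass. Lipe averaged 701.4 ± 183 (SD, n = 4) in p21 males, 1098 ± 146 in SW males and 1058 ± 111 in DW males, and the log2 differences were 0.67 (adjusted p 0.0593) and 0.62 (adjusted p 0.0713). On recovered reads with DESeq2, both passed, with adjusted p-values of 0.0256 and 0.0426. Pnpla2 averaged 1203 ± 217, 1842 ± 217 and 1616 ± 228, with log2 differences of 0.63 ± 0.32 (adjusted p 0.217) and 0.43 ± 0.32 (adjusted p 0.387). All SW males lay above all p21 males for Pnpla2, and the DW males overlapped them. Plin1, the main coat, averaged 1100 ± 147, 1319 ± 94.5 and 1267 ± 79.6, with adjusted p-values of 0.162 and 0.255.

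The inhibitor and the activator of Pnpla2 had differences of the other sign. G0s2 averaged 245.6 ± 70.1 in p21 males, 155.8 ± 37.7 in SW males and 170.2 ± 73.0 in DW males (adjusted p 0.335 and 0.361). Abhd5 averaged 193.3 ± 31.1, 154.7 ± 40.7 and 139.8 ± 15.4 (adjusted p 0.227 and 0.0952). As a description within each animal, the difference between log2 Pnpla2 and log2 G0s2 was 2.32 ± 0.21 (SD, n = 4) in p21 males, 3.58 ± 0.50 in SW males and 3.33 ± 0.56 in DW males. The lowest p28 male, at 2.64, lay above the highest p21 male, at 2.58. In females the same difference was 2.43 ± 0.47, 2.70 ± 0.45 and 2.86 ± 0.34, and the 3 groups overlapped. Animals 82 and 83, which were low in both genes, did not stand apart in this measure. For Abhd5 relative to Plin1 it was -2.51 ± 0.26 in p21 males, -3.12 ± 0.41 in SW males and -3.18 ± 0.10 in DW males. In females that difference was -2.79 ± 0.26, -3.12 ± 0.23 and -2.88 ± 0.30. For Lipe relative to Pnpla2 the group means lay between -0.86 and -0.61 in all 6 groups.

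**Figure D3:**
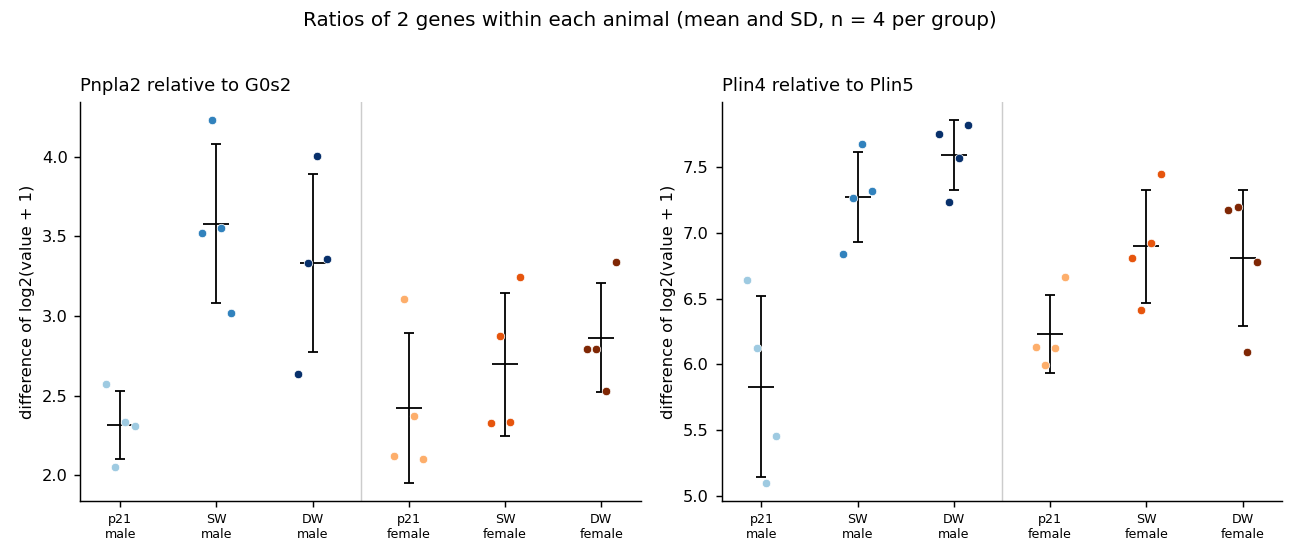
Difference of log2(value + 1) between Pnpla2 and G0s2 (left) and between Plin4 and Plin5 (right) within each animal, by group; black bars and whiskers are means and SDs (n = 4). The Pnpla2 to G0s2 difference is 2.32 in p21 males and 3.58 in SW males, and the Plin4 to Plin5 difference is 5.83 in p21 males and 7.59 in DW males.

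In females the members that passed were Plin5 and Abhd5, and both fell. Against p21 females, SW females had 2 of 10 members lower and none higher, where 11.6% of genes passed, and DW females had 1 of 10 lower and none higher, where 12.1% passed. The median of the 10 log2 differences was -0.09 for SW and -0.36 for DW, beside 0.01 and 0.00 over all genes. Both comparisons share the 4 p21 females.

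Plin5, the coat protein of fat-burning tissue, stood at 15.6, 15.2, 14.2 and 11.3 in p21 females. It stood at 7.56, 9.18, 7.14 and 7.30 in SW females and at 7.53, 8.93, 8.80 and 5.55 in DW females. All 8 p28 females lay below all p21 females. It fell by 0.78 on the log2(value + 1) scale for SW (SE 0.24, adjusted p 0.0375) and by 0.80 for DW (SE 0.24, adjusted p 0.0311). The added 1 understates a change at so low a level. The call rests on the size of the groups: it was lost without any 1 of 6 animals for SW (30, 36, 55, 73, 75 or 81), with adjusted p-values from 0.0774 to 0.0983. For DW it was lost without 30, 36, 55 or 83, and without animals 82 and 83 together (-0.70, adjusted p 0.145).

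In males Plin5 stood at 7.53, 12.1, 20.2 and 19.1 at p21, and 8 p28 males stood between 7.11 and 14.3. The p21 and p28 males overlapped, and the log2 differences of -0.39 (SW, adjusted p 0.311) and -0.50 (DW, adjusted p 0.167) did not pass. Over the 24 animals the log2 level of Plin5 had a Pearson r of 0.77 with the score of 5 brown or beige fat cell genes (Ucp1, Cidea, Cox8b, Ppargc1a and Dio2), the highest of the 10 members, and of -0.70 with the score of 5 macrophage genes. The points share libraries and ages, and both list scores also moved with age. The summed value of the 5 brown or beige genes ran from 714 to 1199 in p21 females, from 525 to 996 in SW females and from 314 to 757 in DW females. That of the 5 macrophage genes ran from 224 to 280, from 447 to 628 and from 606 to 680. The part of either in the Plin5 result was not tested.

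Abhd5, the activator of Pnpla2, stood at 249.96, 155.5, 169.2 and 190.0 in p21 females and at 132.9, 144.2, 109.5 and 121.5 in SW females. The groups did not overlap, and it fell by 0.57 on the log2 scale (SE 0.18, adjusted p 0.0459). This call was lost without any 1 of 6 animals, and without p21 female 30 the difference was -0.43 (adjusted p 0.173). In DW females it stood at 114.8, 132.0, 177.2 and 150.9, which overlapped the p21 females (log2 difference -0.40, adjusted p 0.154, and -0.61, adjusted p 0.0865, without animals 82 and 83). In SW females against p21 females, macrophage genes were called higher in 4 of 5 cases and mammary epithelial genes in 6 of 7, where the summed mammary value ran from 21.6 to 81.9 in p21 females and from 245 to 333 in SW females. Over the 24 animals Abhd5 had a Pearson r of -0.65 with the macrophage score and of -0.33 with the mammary score. The part of macrophages in the Abhd5 result was not tested.

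With the muscle, mammary and lymph node scores as covariates, Plin5 still passed for DW females (-0.91, adjusted p 0.0327). For SW females the Plin5 difference was as large in that fit (-0.83) but did not pass (adjusted p 0.282), and over all 17 other settings it lay between -0.88 and -0.73. The Abhd5 difference for SW was smaller there, at -0.37 (adjusted p 0.464). The mammary score did not overlap between p21 females (1.78 to 3.43) and SW females (4.63 to 5.12). For SW females the covariate fit therefore cannot separate age from that score.

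The members that rose in males did not pass in females. Plin4 averaged 1128 ± 97.3 in p21 females, 1063 ± 261 in SW females and 1017 ± 387 in DW females, with log2 differences of -0.11 (95% interval -0.54 to 0.32) and -0.23 (-0.65 to 0.20). Cidec averaged 554.0 ± 211, 739.3 ± 102 and 489.3 ± 217, with log2 differences of 0.47 (adjusted p 0.238) and -0.22 (adjusted p 0.589). At p21, Cidec stood at 866.8 in animal 30 and at 422.4 to 494.8 in the others. The SW females stood at 654.6 to 885.1. Mgll averaged 476.5 ± 43.6, 594.4 ± 114 and 527.0 ± 126, with differences of 0.30 (adjusted p 0.278) and 0.12 (adjusted p 0.701). With animals 82 and 83 left out, the DW differences of Plin4 and Cidec had the other sign, at 0.25 (adjusted p 0.459) and 0.34 (adjusted p 0.375), and that of Mgll was 0.39 (adjusted p 0.159). Plin1 was lower in all 4 DW females (1011 to 1083) than in all p21 females (1168 to 1408), with a log2 difference of -0.32 ± 0.12 (adjusted p 0.095), and of -0.28 (adjusted p 0.267) without animals 82 and 83.

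In DW females Lipe and G0s2 followed the split of the group, as Pnpla2 did (log2 difference from p21 -0.71 ± 0.32, adjusted p 0.155). Lipe stood at 773.0 and 817.3 in animals 76 and 77 and at 484.0 and 357.3 in animals 82 and 83, against 813.0 to 953.3 at p21, a log2 difference of -0.61 ± 0.23 (adjusted p 0.0879). G0s2 stood at 267.1 and 225.5 in the first pair and at 105.9 and 45.0 in the second, a difference of -1.14 ± 0.41 (adjusted p 0.071). Leaving out animal 76 brought the number of members called in this comparison to 4 (Pnpla2, Lipe, G0s2 and Plin5), and leaving out animal 77 brought it to 3. Leaving out animals 82 and 83 together brought it to 0, where the Lipe difference was -0.14 and the G0s2 difference was -0.24. That last fit called 1392 of 16005 genes. The numbers of all genes called without 76 or without 77 are not reported here, so the counts of 4 and 3 are not read as particular to the members.

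**Figure D4:**
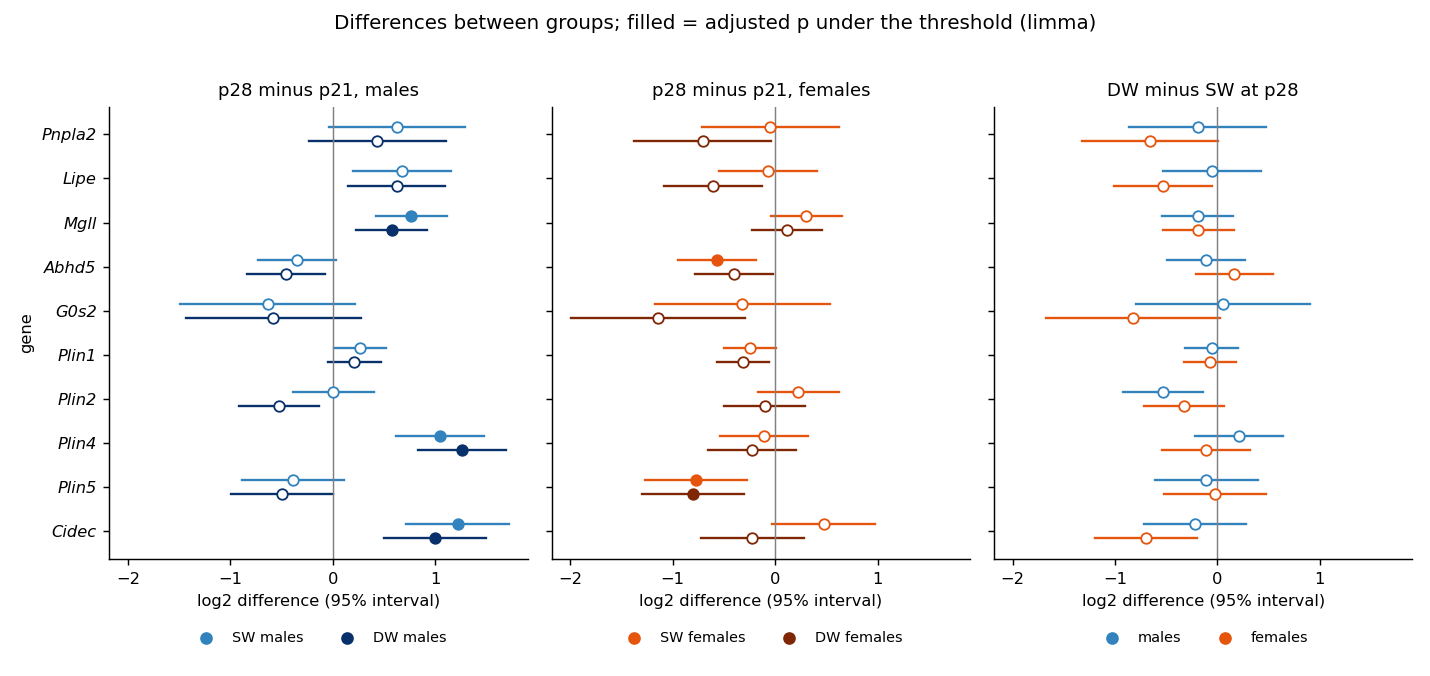
Log2 difference with its 95% interval for each gene: p28 minus p21 in males, p28 minus p21 in females, and DW minus SW at p28; filled points passed the adjusted test. Plin4, Cidec and Mgll are filled in the male panel, at 0.57 to 1.26, Plin5 and Abhd5 are filled in the female panel, and no weaning difference is filled.

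Males and females were then compared directly. At p21 no member passed, where 0.356% of genes did, although all 4 p21 females (1037 to 1246) lay above all p21 males (726 to 909) for Plin4, a female minus male log2 difference of 0.42 ± 0.21 (adjusted p 0.59). At an unadjusted p under 0.05 there was 1 member (Plin1), where 8.60% of genes were. edgeR and DESeq2 called 0 members, where they called 15 and 115 of 16005 genes. At p28 the order was the reverse. For SW, Plin4 was the only member called, where 3.54% of genes were: SW females stood at 956.4, 865.3, 984.6 and 1446, below every SW male. The difference was -0.74 ± 0.21, with an adjusted p of 0.0496 that lies at the threshold. It passed in 8 of 18 other settings, with a difference from -1.30 to -0.65, and was lost without any 1 of 7 of the 8 animals (all but SW female 81). Mammary epithelial genes were called higher in females in 7 of 7 cases, and with the muscle, mammary and lymph node scores as covariates the Plin4 difference was -1.30 and did not pass (adjusted p 0.695). The mammary score ran from 0.34 to 2.29 in SW males and from 4.63 to 5.12 in SW females, without overlap. That fit called 9 genes, against 567 without covariates, and it cannot separate sex from the mammary score.

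For DW, 2 of 10 members were called, both lower in females, where 2.46% of genes were called. Plin4 stood at 1228, 1456, 667.4 and 716.9 in DW females, all below the DW males, a difference of -1.06 ± 0.21 (adjusted p 0.00346). Lipe stood lower in every DW female (357.3 to 817.3) than in every DW male (909.9 to 1179), a difference of -0.87 ± 0.23 (adjusted p 0.0437). Without animals 82 and 83 neither passed, and the difference was -0.59 for Plin4 (adjusted p 0.160) and -0.41 for Lipe (adjusted p 0.604). Without either of the 2 alone, Plin4 was the only member called, and without animal 76 the count was 5. The numbers of all genes called in the fits without 1 animal are not reported here, so these counts are not read as particular to the members. Mammary epithelial genes were called higher in DW females in 7 of 7 cases too. With the tissue scores as covariates neither member passed (-1.49 for Plin4 and -1.49 for Lipe, adjusted p 0.203 for both), and neither did when DW males and DW females alone were fitted (adjusted p 0.138 and 0.212). The mammary score ran from 0.45 to 1.23 in DW males and from 3.20 to 4.31 in DW females. The covariate fit called 5 genes, against 394 in the main fit, and it cannot separate sex from that score. Within the runs of animal numbers the Plin4 difference was -0.71 in 73 to 80 and -1.42 in 81 to 87.

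Whether the age difference itself differed between the sexes was tested as an interaction. With limma no member passed for SW, where 1.03% of genes did, and none passed for DW, where 0.0687% did. At an unadjusted p under 0.05 there were 4 members for SW, where 8.15% of genes were, and 5 for DW, where 17.0% were. edgeR called 0 members for both, but of 16005 genes it called only 4 for SW and 0 for DW. Plin4 came nearest: its age difference was lower in females than in males by -1.16 ± 0.29 for SW (adjusted p 0.0578) and -1.49 ± 0.29 for DW (adjusted p 0.0565). For SW it passed without SW female 81 (-1.32, adjusted p 0.0233). On recovered reads with DESeq2 it passed for both (-1.13, adjusted p 0.0182, and -1.40, adjusted p 0.00105). For DW, DESeq2 also called Lipe, Plin1 and Cidec, 4 of 10 members where it called 2.06% of genes. Without animals 82 and 83 the limma difference for DW was -1.01 for Plin4 (adjusted p 0.126), -0.76 for Lipe, -0.49 for Plin1 and -0.66 for Cidec, none of which passed, and DESeq2 was not run without them. For Cidec, the limma interactions were -0.75 ± 0.34 (adjusted p 0.563) for SW and -1.22 ± 0.34 (adjusted p 0.138) for DW. For Mgll, they were -0.46 ± 0.24 (adjusted p 0.66) for SW and -0.46 ± 0.24 (adjusted p 0.318) for DW. With limma, the calls of Cidec and Mgll in males alone are thus not shown to differ from females. The same holds for the female calls: the Plin5 interactions were -0.39 and -0.31 (adjusted p 0.882 and 0.65), and that of Abhd5 for SW was -0.22 (adjusted p 0.929).

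Plin4 and Plin5 are neighbours on chromosome 17, on the same strand: the deposited positions are 56407591 to 56416803 and 56418601 to 56424596, in a build that the table does not name. Plin4 was called higher at p28 in males, and Plin5 was called lower at p28 in females. Within each animal the difference between log2 Plin4 and log2 Plin5 was 5.83 ± 0.69 (SD, n = 4) in p21 males, 7.27 ± 0.34 in SW males and 7.59 ± 0.26 in DW males. In females it was 6.23 ± 0.30, 6.90 ± 0.43 and 6.81 ± 0.52. All p28 males exceeded all p21 males in this measure. The pair was not among those listed in the design, and the measure carries the Plin4 difference itself. Over the 24 animals the log2 levels of the neighbours had a Pearson r of -0.06.

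Genes around the 10 members were taken from lists for the hormone signal that starts lipolysis, the signals that restrain it, other lipases, other droplet proteins and the handling of the products. The counts that follow stand beside all tested genes: 6.90% were called higher and 4.97% lower in SW males against p21 males, 8.86% and 6.10% in DW males, 7.39% and 4.23% in SW females, and 5.95% and 6.16% in DW females. Among 14 genes of the lipolytic cascade (receptors, adenylyl cyclases and protein kinases), 4 were called in SW males and 4 in DW males against p21 males, and none in SW females. Adrb3, the beta-3 receptor of fat cells, rose from 79.6 ± 20.2 to 143 ± 26.0 in SW males (0.85, adjusted p 0.0016) and from 73.1 ± 3.78 to 126 ± 20.3 in DW females (0.77, adjusted p 0.00324, and 0.58, adjusted p 0.0563, without animals 82 and 83). Adcy5, an adenylyl cyclase, rose in both male groups (0.92 and 1.02, adjusted p 0.013 and 0.00596). Adrb1, another beta receptor, fell by 0.57 and by 0.80 from 2.95 ± 1.06, a low level. Adcy3, another cyclase, also rose in both male groups (0.64, adjusted p 0.0190 for SW and 0.62, adjusted p 0.0205 for DW). Prkaca, the catalytic subunit of protein kinase A, fell by 0.46 in DW females (adjusted p 0.0404), a call lost without animals 82 and 83 (-0.28, adjusted p 0.333).

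Of 9 antilipolytic genes, 4 rose in SW males and 4 in DW males, and none fell. Hcar2, a receptor for ketone bodies and niacin, rose from 13.3 ± 2.68 to 39.3 ± 8.32 in SW males (1.495, adjusted p 0.000109) and to 31.9 ± 6.03 in DW males (1.20, adjusted p 0.000825). Adora1, the adenosine A1 receptor, rose by 0.82 and 0.99 (adjusted p 0.028 and 0.00884). Ptger3, a prostaglandin E receptor that lowers cyclic AMP, was the only listed pathway gene called in a weaning comparison. It stood at 145 ± 22.9 in SW females and 70.8 ± 27.5 in DW females, a difference of -1.10 ± 0.24 (adjusted p 0.0271). Without animals 82 and 83 the difference was -0.60 (adjusted p 0.786), in a fit that called 7 genes where 204 were called with them. Ptger3 rose from 63.8 ± 12.5 at p21 to the SW level (1.18, adjusted p 0.00226). In DW females against p21 females, Npr3 (1.17) and Hcar2 (0.87) rose. Hcar2 still passed without animals 82 and 83 (0.89, adjusted p 0.0383), and Npr3 did not (0.72, adjusted p 0.283). Between the sexes in SW animals, Hcar2 was lower in females (-0.92, adjusted p 0.00807) and Adra2a, the alpha-2A receptor, was higher (0.74, adjusted p 0.0149).

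Of 6 other lipases, the carboxylesterases Ces1f (1.22 and 1.07) and Ces1d (0.80 and 0.76) rose in SW and DW males, and Ces1d rose in DW females (0.45), which did not pass without animals 82 and 83 (0.26). Members of that family are near copies of each other, so reads may be shared between them. Of 15 other droplet proteins, Hsd17b11 rose in SW males, DW males and DW females (0.68, 0.65 and 0.60), and in the last also without animals 82 and 83 (0.53, adjusted p 0.0379). Fitm1, which is best known from muscle, passed in SW males at an adjusted p of 0.0493, with a mean of 2.27 ± 2.31. Of 5 genes that handle fatty acids and glycerol, Acsl1 and the glycerol channel Aqp7 rose in both male groups, by 0.56 to 0.59. Glycerol kinase (Gk) fell by 1.20 in SW females (adjusted p 0.00471) and by 0.82 in DW males (adjusted p 0.0456). Aqp7 was lower in females than in males at p28 under both regimes (-0.61 and -0.63), and Acsl1 was lower in females for DW (-0.64, adjusted p 0.0162). Neither passed for DW without animals 82 and 83 (-0.57, adjusted p 0.266 for Aqp7, and -0.56, adjusted p 0.169 for Acsl1). Some genes of these lists gained a call when those animals were left out. In DW females against p21, Adcy5 and Gnai2 were then called higher and Ddhd2 and Gk lower, where 1392 of 16005 genes were called. Prkar2b was then called lower in DW females than in DW males, where 294 were called.

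The members were also compared by pattern over the 24 animals, as a description. Pnpla2 and Lipe were the closest pair (Pearson r 0.86), followed by Pnpla2 and Cidec (0.83), and Plin4 went with Lipe (0.79), Cidec (0.79) and Mgll (0.73). Plin2 and Plin4 were the most opposed pair (-0.50), and Abhd5 had negative values with Mgll (-0.35) and Cidec (-0.33). Of 9931 other genes, the one most like a member was Grina for Pnpla2 (0.96), Arhgef40 for Lipe (0.94), Mpp2 for Mgll (0.92), H6pd for Plin4 (0.92) and Pxmp4 for Cidec (0.95). It was Rhoa for Abhd5 (0.89), Pus1 for G0s2 (0.91), Pdhb for Plin2 (0.85) and Letmd1 for Plin5 (0.85). These values are over animals of different sexes and ages, and animals 82 and 83 lie at the low end of Pnpla2, Lipe, G0s2, Plin4 and Cidec. Animal 83 also holds the lowest Mgll value.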

How the data were processed

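Per the labels, poly(A) RNA of inguinal white adipose tissue from 24 mice was sequenced, and the labels of age, sex and weaning gave the groups. The authors deposited 1 normalised signal for each gene in each library, a read count over a library factor. Per the submitters' processing notes, fastp, HISAT2, featureCounts and DESeq2 1.38.3 were used with mm10, in an order and with settings not given in the sources used here. The deposited gene positions equal those of GRCm38 for only 2.23% of starts, so their build is not established. All deposited values (100%) were whole multiples of their library's smallest step (tolerance 0.001), so whole reads were recovered. The table has 16208 rows for 16118 genes, after 90 repeated rows with equal values were left out. The smallest chi-square per degree of freedom between replicates was 77.1, so none was merged.

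Genes kept by filterByExpr (minimum count 10) on recovered reads, 16005 in all, were tested with limma 3.58.1 (trend, R 4.3.3) on log2(value + 1), with 6 groups in 1 fit and 18 residual degrees of freedom. P-values were adjusted over all genes, in 12 comparisons. The same script was tested on simulated data. edgeR 4.0.16 and DESeq2 1.42.0 on recovered reads, another pseudocount (0.1), other filters, covariates and left-out animals were the alternatives. Levels per kb used exon lengths of GENCODE M21. All 10 members are named, and other genes were named from lists, as those called in a weaning comparison and the 2 largest changes each way. The members and lists were chosen with earlier results of these data known. No 2 groups share animals, so nothing was paired. The gene most like Plin1 is not reported here.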

Additional observations from a re-analysis of the deposited data

How the results depend on the processing

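No paired analysis was possible because no 2 groups hold the same animals. Of 2380 differences of single members under other settings, 54 lost their call, 32 gained one and none that was called changed sign. Among differences called in neither fit, 108 changed sign. Counts of members called that moved by over 1.5 times were as follows, by setting. The number in brackets after a count is that of all genes called in the same fit, of 16005 tested unless stated. With DESeq2 they were 5 in DW males against p21 (3077) and 4, a smaller move, in SW males (2562). DW females against p21 gave 2 (2376), and the interactions of sex and age gave 1 for SW (107) and 4 for DW (329). With edgeR the sex comparison in DW animals gave 1 (382). With muscle, mammary and lymph node scores as covariates the counts against p21 were 1 in SW males (442) and 1 in DW males (397). They were 0 in SW females (337) and 2 in DW females (2268). In both sex comparisons at p28, where the mammary score nearly stands in for sex, they were 0 (9 for SW and 5 for DW). Without animals 53, 84 and 36 they were 1 in SW females (2044) and 0 in DW females (1816) against p21. Between the sexes they were 0 for SW (556) and 1 for DW (454). With only the compared groups fitted, the sex comparison in DW animals gave 0 (256) and the interaction for SW gave 1 (141). Without a variance trend both interactions gave 1 (153 for SW and 13 for DW). With genes kept only at 1 or more in 4 samples the interaction for DW gave 1 (9 of 13574). With the run of animal numbers as a covariate the sex comparisons gave 0 for SW (576) and 1 for DW (403). Without animals 82 and 83, a setting added after the data were seen, DW females against p21 gave 0 (1392). The sex comparison in DW animals gave 0 (294) in that setting.

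Leaving out 1 animal at a time gave 0 to 4 members for DW females against p21, 2 to 4 for DW males, 0 to 2 for SW females and 3 to 4 for SW males. It gave 1 to 5 for the sex comparison in DW animals, 0 to 1 in SW animals, 0 to 1 for both interactions of sex and age, and 0 to 2 for weaning in females. The other counts stayed at 0. The numbers of all genes called in the fits that left out 1 animal are not reported here.

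Limits are those of 4 animals a group. Of the 12 called differences, Plin4 in males passed in all 17 other settings under each regime, and Cidec and Mgll in SW males each passed in 16. Cidec in DW males passed in 16, and Mgll in 12. Plin5 and Abhd5 in SW females passed in 9 and 10 of 17, Plin5 in DW females in 12 of 18, Plin4 between the sexes in 8 of 18 (SW) and 16 of 19 (DW), and Lipe in 7 of 19. The background also moved: weaning in females called 204 genes in the main fit, 71 with edgeR, 290 with DESeq2, 63 with a pseudocount of 0.1, 10 with tissue scores as covariates, 7 without animals 82 and 83 and 1 with only the compared groups fitted.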

Other observations

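On log2(value + 1), none of the 60 sets of 4 (10 genes in 6 groups) had an extreme animal beyond Dixon's critical value at 95%. Chance would give about 3. On the deposited values themselves it was exceeded by Plin2 in DW female 82 (400.4, the others 180.1 to 211.5). It was also exceeded by Cidec in p21 female 30 (866.8, the others 422.4 to 494.8). The DW females 82 and 83 stood apart as a pair, and a pair cannot be found by that rule.

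Leptin (Lep), a hormone whose level follows the fat that cells hold, ran from 149 to 256 in p21 males, from 57.0 to 149 in SW males and from 86.4 to 369 in DW males, which overlapped both. In females it ran from 157 to 311 at p21, which overlapped both p28 groups, from 120 to 162 in SW animals and from 212 to 291 in DW animals. Lep passed the limma test as lower in SW males against p21 males, where Adipoq and Cfd passed as higher. None of the 7 adipocyte markers passed the limma test in either weaning comparison. Ucp1, the uncoupling protein of brown and beige fat, ran from 203 to 690 in p21 males, from 91.4 to 438 in SW males, which overlapped both, and from 73.2 to 138 in DW males. In females it ran from 33.7 to 454 at p21, from 76.3 to 179 in SW animals and from 122 to 203 in DW animals. It passed as lower in DW males against p21 males and in no other age comparison.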
